A study of Homo sapiens with 9 samples.

Results

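Long noncoding RNA genes are described here in N/TERT cells, a telomerase-immortalised line of human epidermal keratinocytes in which SGPL1 was altered. SGPL1 encodes sphingosine 1-phosphate lyase, the enzyme of the last step of sphingolipid breakdown. The genes were chosen by name and level: symbols that begin with LINC, microRNA host genes (MIR to HG), antisense genes (ending in AS1, AS2 or AS3), divergent transcripts (DT), intronic transcripts (IT1), and MALAT1 and NEAT1, each with a CPM (its share of the library's counts, scaled to counts per 1e6) of at least 1 in at least 3 of the 9 libraries. SNHG genes and XACT were left out. Of 60671 genes in the count files, 4879 carried such a name and 552 of these reached the level, among 13605 genes of any name that did. The 552 genes, called members below, were 272 antisense genes, 131 LINC genes, 120 divergent transcripts, 24 microRNA host genes, 3 intronic transcripts, and MALAT1 and NEAT1. GENCODE 29 lists 5 members as protein-coding, and 11 as transcribed unprocessed, 2 as transcribed unitary and 1 as transcribed processed pseudogenes. The level was read from the same libraries that are compared below. CPM values printed from here on are scaled by TMM as well, except where the plain share is named or the CPM limit is meant. TMM corrects each library's total for its composition, so a value can differ a little from that plain share.

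The study compared 3 control libraries from wild-type (WT) N/TERT cells, 3 from cells with SGPL1 knocked out by CRISPR (SGPL1 KO, called KO) and 3 from cells that overexpress SGPL1 (labelled SGPl1 OE, called OE). All groups were untreated and share the line's immortalisation. How many edited or overexpressing clones stand behind the libraries, and how SGPL1 was overexpressed, are not given in the sources used here. According to the submitters, the libraries within each group are biological replicates, and p values measure the spread between these libraries.

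Long noncoding RNAs are transcripts with no long reading frame, and many stay in the nucleus. NEAT1 is the scaffold of paraspeckles and MALAT1 is a component of nuclear speckles. Host genes carry microRNA hairpins that are cut from the primary transcript, and the mature microRNA then recognises its targets mainly through its seed, bases 2 to 8. Divergent transcripts start at the promoter of a coding neighbour and run the other way, while antisense genes overlap or face a coding gene on the other strand.

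RefSeq sequences on GRCh38.p14 placed mature microRNAs at 77 positions within the spans of the 24 host genes, and at 2 more just outside one of them. Mature microRNAs were not measured, and the counts describe the host transcripts. The microRNAs of the host genes that the results turn on are shown with the seed in capitals.
miR-503-5p (MIR503HG): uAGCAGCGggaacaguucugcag
miR-424-5p (beside MIR503HG): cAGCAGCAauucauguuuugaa
miR-221-3p (MIR222HG): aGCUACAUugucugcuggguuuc
miR-222-3p (MIR222HG): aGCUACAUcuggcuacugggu
miR-34a-5p (MIR34AHG): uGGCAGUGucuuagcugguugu
miR-600 (MIR600HG): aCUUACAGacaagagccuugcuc
miR-200c-3p (MIR200CHG): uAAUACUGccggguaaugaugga
miR-141-3p (MIR200CHG): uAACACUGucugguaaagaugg
miR-205-5p (MIR205HG): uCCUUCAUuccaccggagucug
miR-22-3p (MIR22HG): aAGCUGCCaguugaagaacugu
let-7a-5p (MIR100HG, MIRLET7A1HG and MIRLET7BHG): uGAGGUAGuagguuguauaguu
let-7i-5p (MIRLET7IHG): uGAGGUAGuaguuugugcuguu
miR-4458 (MIR4458HG): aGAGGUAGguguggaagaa
In MIR222HG, miR-221-3p and miR-222-3p had the same seed, GCUACAU, while miR-222-5p, also within its span, had UCAGUAG. The let-7 seed GAGGUAG was shared by microRNAs of 5 host genes, MIR100HG, MIR4458HG, MIRLET7A1HG, MIRLET7BHG and MIRLET7IHG. The mature miR-424-5p lay 37 bases outside the span of MIR503HG.

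The libraries held 6317564 to 13330479 counts, of which 0.279% to 0.312% fell on members. All 6 keratinocyte markers were above 1 CPM, with a summed level of 19855 to 20319 CPM in control, 10776 to 11763 in KO and 21949 to 23194 in OE libraries. Of the fibroblast markers 1 of 6 exceeded 1 CPM, with COL3A1 and LUM at 0 and a sum of 21.3 to 28.3 CPM in control, 8.12 to 13.3 in KO and 24.1 to 27.8 in OE libraries. Of the melanocyte markers 2 of 5 did, with DCT and TYR at 0 and sums of 89.7 to 101 in control, 69.2 to 76.5 in KO and at most 71.3 in OE libraries. Of the immune markers 1 of 4 did, with CD3E and PTPRC at 0 and sums of 2.32 to 4.80 CPM in control, up to 7.78 in KO and 0.885 to 1.90 in OE libraries. Of the endothelial markers 0 of 3 did, with PECAM1 at 0 and sums of 1.35 to 1.42 CPM in control, 0.964 to 1.35 in KO and 0.292 to 0.664 in OE libraries. SGPL1 itself had 92.5 ± 7.55 CPM in control, 59.6 ± 1.75 in KO and 1055 ± 110 in OE libraries (mean ± SD, n = 3 libraries a group here and below). Edited transcripts can still be counted, so the KO level does not measure the loss of protein. Across all genes, KO changes tracked how long the exons were and how rich in GC, so values with that trend removed, called trend-corrected, stand beside the KO changes of named genes. What these shifts in marker sums contribute to the KO and OE results was not tested. In bulk libraries, fewer cells of a type and less RNA per cell cannot be told apart.

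Most members were sparse. Their median level was 1.97 CPM, against 25.4 CPM for the 13390 genes with enough counts to test, and the 10 members with most counts held 32.6% of all member CPM. Of the 552 members, 237 had at least 1 CPM by the plain share in every library, 52 had a mean of at least 10 CPM and 5 a mean of at least 100 CPM. By the plain share, the members just inside the limit, LINC03060, TBC1D8-AS1 and WWC2-AS2, had 1.001 CPM in their third-highest library. UBE2D3-AS1, POLH-AS1 and LINC00899, just outside, had 0.975 CPM by the plain share. Reads were counted without regard to strand. No exon base was shared with another gene for 209 members, and the median share was 2.71%, while 13 members shared more than 50 percent. Strand was not used to tell apart reads over exon bases that a member shares with another gene. Such reads are left unassigned unless the counting program is told otherwise. Over the other exon bases of a member, reads from either strand count toward it.

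Per length, the highest members were MIR205HG, host of the epithelial microRNA miR-205, with a mean of 44.4 RPKM (CPM per 1000 exon bases) over the 9 libraries, and IRX2-DT, the divergent transcript of the homeobox gene IRX2, with 43.8 RPKM. FGD5-AS1 (25.5 RPKM), LINC03061 (25.3), LINC02967 (23.6), IGFL2-AS1 (17.5), MAP3K9-DT (17.1), TRIM8-DT (15.3), MIR200CHG, whose exon model spans 350 bases, and MALAT1 (12.8) followed in that order. The order changed with the group: LINC02967 had 46.0 RPKM in KO and 5.65 in OE libraries, and IRX2-DT 76.7 and 20.6. The libraries were made from poly-A selected RNA, and MALAT1 and the long form of NEAT1 end without a poly-A tail, so their levels here need not reflect their abundance in the cell.

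**Figure D1:**
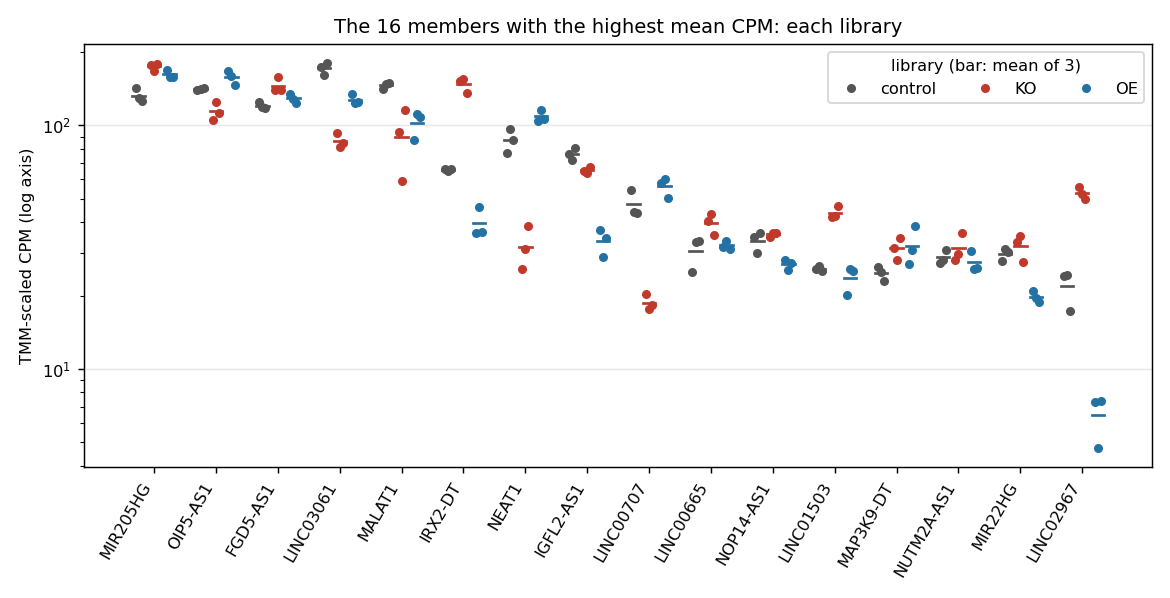
Level of the 16 members with the highest mean, as CPM scaled by TMM on a log axis, with a dot for each library and a bar at the mean of each group of 3. LINC02967 spans the widest range of these, from 4.74 CPM in an OE library to 55.7 in a KO library.

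Between KO and control cells, 58 members were higher and 56 lower, and 388 of the 502 members with enough counts did not pass the test (edgeR's quasi-likelihood test, Benjamini-Hochberg adjusted p under 0.05 over 13390 genes). That was 22.7% of members tested, beside 51.9% of all tested genes (26.0% higher and 25.9% lower). At 2-fold or more, 36 members were higher and 36 lower, beside 6.36% and 6.52% of all tested genes. Among the 52 members with a mean of at least 10 CPM, 13 were higher and 15 lower, or 53.8%, beside 62.3% of all tested genes at that level. The median log2 fold change was 0.03 over the members tested and -0.00465 over all tested genes. With the trend removed, 54 were higher and 53 lower (24.0% and 21.9% over all tested genes), and 81 members were called in the same direction both ways.

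By class, 26 antisense genes rose and 25 fell of 246 tested, 16 LINC genes rose and 18 fell of 116, 12 divergent transcripts rose and 4 fell of 113, and 4 microRNA host genes rose and 6 fell of 22. With the trend removed the divergent transcripts split 11 to 6 and the host genes 4 to 4. Of the 9 members that reached the level through a single group, such as AKAP1-DT and DLG1-AS1 in KO libraries, 3 are among the KO calls, and they support nothing here. Called or not, KO and control libraries did not overlap in 170 of 502 members (33.9%), beside 59.5% of all tested genes. Of the 114 members called, 107 did not overlap. The test favours genes whose libraries do not overlap, so such counts among called members support nothing, here and in the other comparisons. The share over all called genes was not computed.

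**Figure D2:**
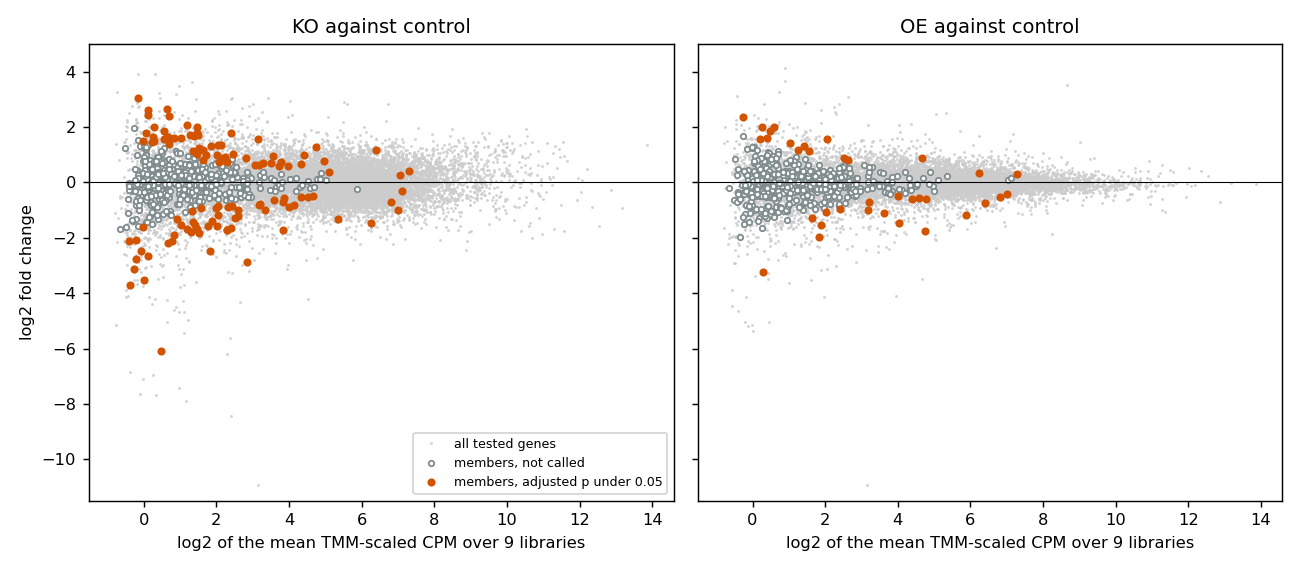
Log2 fold change in KO (left) and OE (right) libraries against control, by the log2 mean CPM over the 9 libraries, for all tested genes (grey) and for members with (orange) and without (open) an adjusted p under 0.05. Members lie mostly at low levels, where their median SE in KO against control was 0.45, beside 0.15 over all tested genes.

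NEAT1 (ENSG00000245532, chr11:65422774-65445540, plus strand) had 77.4, 96.4 and 86.9 CPM in control, 25.7, 30.9 and 38.7 in KO and 105, 116 and 107 in OE libraries. All KO libraries lay below all control libraries, and all OE libraries above them. In KO cells NEAT1 fell by 1.46 ± 0.12 on the log2 scale (± SE of the fit here and below), a 2.76-fold decrease (adjusted p = 1.2e-09, trend-corrected -0.91). In OE cells the rise was 0.33 ± 0.11 (adjusted p = 0.0398), and it missed the threshold without control library 1 (0.2), control library 3 (0.103) or OE library 2 (0.145), where brackets after a library give the adjusted p without it, here and below.

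MALAT1 (ENSG00000251562, chr11:65497688-65506516, plus strand), which lies next to NEAT1, had 142, 149 and 149 CPM in control, 94.0, 59.3 and 116 in KO and 87.3, 112 and 108 in OE libraries. Both altered groups were below control without overlap, and overlapped each other. MALAT1 fell by 0.72 ± 0.15 in KO (adjusted p = 0.000232, trend-corrected -0.66) and by 0.52 ± 0.14 in OE cells (adjusted p = 0.0125). The OE change missed the threshold with DESeq2 (adjusted p = 0.108) and without OE library 1 (0.0648). KO and OE cells are set against the same control libraries here and below.

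Members took 0.308% ± 0.00423 of counts in control, 0.282% ± 0.00328 in KO and 0.293% ± 0.00326 in OE libraries. No groups overlapped, with an exact two-sided permutation p of 0.1 for each pair, the smallest that 3 libraries against 3 allow. Without MALAT1 and NEAT1 the share was 0.271% in both KO and OE libraries (exact permutation p = 0.9) and 0.285% in control.

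Of the host genes, MIR503HG (chrX:134543119-134546642, minus strand) fell furthest in KO cells. It had 10.6, 13.3 and 10.6 CPM in control, 0.603, 0.897 and 3.72 in KO and 8.08, 9.27 and 7.80 in OE libraries. KO libraries lay below all others, and KO library 3 above the other KO libraries. The fall in KO was 2.86 ± 0.37 on the log2 scale, or 7.28-fold (adjusted p = 7.94e-07, trend-corrected -3.17), and the OE value was -0.46 ± 0.28 (adjusted p = 0.299). The miR-503 and miR-424 family is known to target cell-cycle genes.

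MIR222HG, host of miR-221 and miR-222, which repress the cyclin-dependent kinase inhibitor CDKN1B, had 2.73, 2.00 and 2.25 CPM in control, 0.723, 0.224 and 0.676 in KO and 1.77, 3.23 and 1.97 in OE libraries. KO libraries lay below all others. MIR222HG fell by 2.12 ± 0.55 in KO cells (adjusted p = 0.00253, trend-corrected -2.58). MIR34AHG, host of the p53 target miR-34a, had 6.98, 10.3 and 8.31 CPM in control, 3.25, 3.14 and 4.73 in KO and 5.53, 5.95 and 6.35 in OE libraries. KO libraries were again lowest without overlap, with a fall of 1.23 ± 0.26 (adjusted p = 0.000418, trend-corrected -0.81, adjusted p = 0.015). In OE cells MIR34AHG had -0.52 ± 0.24 (adjusted p = 0.143). MIR600HG fell by 1.68 ± 0.47 in KO cells, from 3.72 ± 1.25 to 1.19 ± 0.577 CPM (adjusted p = 0.00429, trend-corrected -1.48).

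The calls of MIR23AHG and MIR4435-2HG, which have long exon models, depended on the correction. MIR23AHG, host of the miR-23a, miR-27a and miR-24 cluster, spans 19049 exon bases and was lower in KO cells by 0.99 ± 0.21 (adjusted p = 0.000383), but had a trend-corrected value of -0.16 (adjusted p = 0.585). MIR4435-2HG spans 34231 exon bases and was lower by 0.77 ± 0.28 (adjusted p = 0.0227), but 0.00493 with the trend removed (adjusted p = 0.991). The MIR4435-2HG call was also lost without control library 1 (0.0826), control library 2 (0.0503) or KO library 2 (0.171).

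MIR200CHG (chr12:6963246-6964447, plus strand) rose in KO cells. It hosts miR-200c and miR-141, which hold epithelial cells in their state by repressing ZEB1 and ZEB2. It had 2.29, 2.32 and 4.83 CPM in control, 13.9, 10.4 and 8.29 in KO and 2.43, 0.907 and 1.90 in OE libraries. All KO libraries were above the rest, and control and OE overlapped. The KO rise was 1.80 ± 0.33, or 3.47-fold (adjusted p = 9.2e-05, trend-corrected 1.20, adjusted p = 0.00406), and the OE value was -0.84 ± 0.38 (adjusted p = 0.137).

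MIR205HG (chr1:209428817-209432838, plus strand) had 142, 129 and 126 CPM in control, 178, 168 and 178 in KO and 170, 158 and 159 in OE libraries. Both altered groups lay above control without overlap, by 0.40 ± 0.08 in KO (adjusted p = 0.000201, trend-corrected 0.20, adjusted p = 0.028) and 0.29 ± 0.08 in OE cells (adjusted p = 0.0117). The OE call was lost without control library 2 (0.0633) or control library 3 (0.0729).

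Of the hosts with a let-7 seed, MIR100HG rose by 0.62 ± 0.21 in KO cells, from 7.61 ± 1.5 to 11.7 ± 1.12 CPM (adjusted p = 0.0166, trend-corrected 1.11). The call was lost without control library 3 (0.0908) or KO library 2 (0.0646). MIR4458HG was higher by 1.58 ± 0.56, at 2.57 ± 0.795 against 0.833 ± 0.515 CPM (adjusted p = 0.0209, trend-corrected 1.49). The MIR4458HG call did not hold without control library 2 (0.0736), control library 3 (0.0898) or KO library 3 (0.0756). MIRLET7BHG had -0.60 ± 0.33 (adjusted p = 0.128) and MIRLET7IHG 0.30 ± 0.57 (adjusted p = 0.682). MIRLET7A1HG, with 1.06 ± 0.446 CPM in control and 1.42 ± 0.841 in KO libraries, and MIR17HG, with 0.906 ± 0.219 and 0.230 ± 0.113, had too few counts to test.

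In OE cells MIR22HG, whose microRNA is known as a growth suppressor, was the one host gene lower than in control. It had 27.8, 31.1 and 30.1 CPM in control, 33.1, 35.2 and 27.6 in KO and 20.8, 19.6 and 18.8 in OE libraries. OE libraries lay below all others, by 0.59 ± 0.13 against control (adjusted p = 0.00193), and KO and control overlapped (0.11 ± 0.13, adjusted p = 0.474). MIR924HG was higher in OE cells by 1.18 ± 0.39 (adjusted p = 0.0377), and lost that call without control library 1 (0.0564), control library 2 (0.141), control library 3 (0.0752), OE library 1 (0.0626), OE library 2 (0.0712) or OE library 3 (0.0991). MIR31HG had 0.39 ± 0.23 in KO (adjusted p = 0.169) and MIR210HG, host of the hypoxia microRNA miR-210, 0.63 ± 0.31 (adjusted p = 0.0914). These and the remaining 8 tested hosts passed the test in neither comparison with control.

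**Figure D3:**
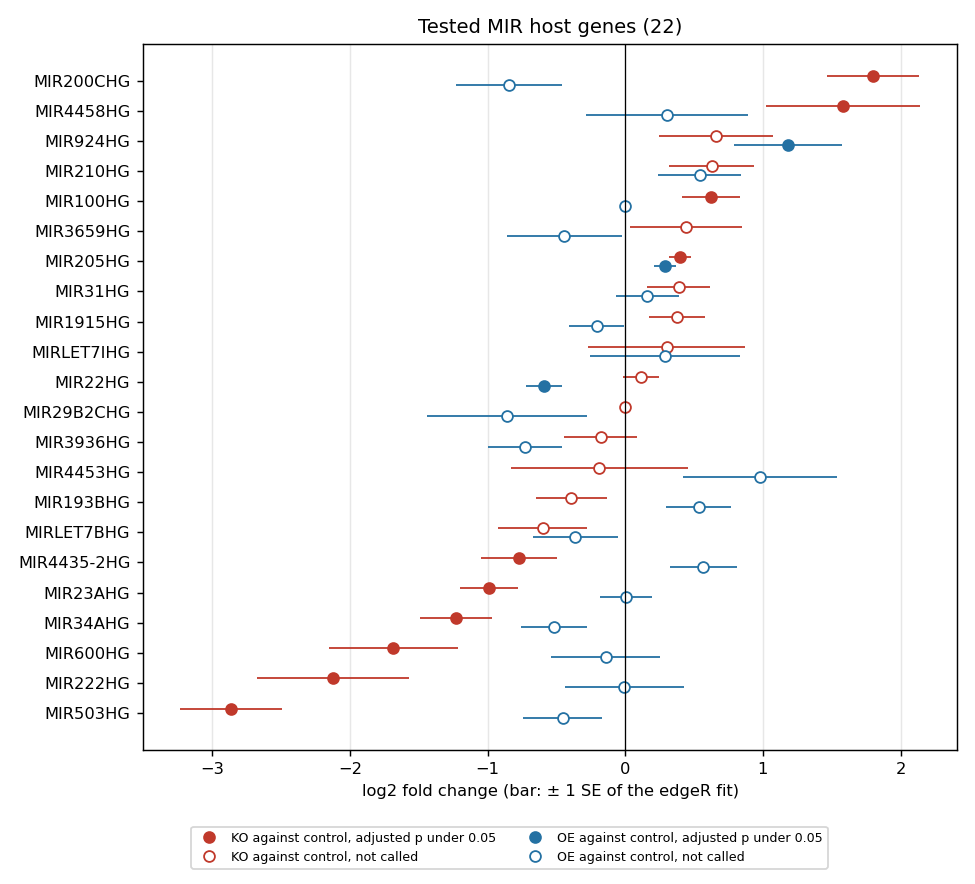
Log2 fold change of the 22 tested microRNA host genes in KO (red) and OE (blue) libraries against control, with 1 SE of the fit to each side. Filled symbols have an adjusted p under 0.05, and MIR29B2CHG in KO and MIR100HG in OE, close to 0, have no SE drawn.

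Among LINC genes, LINC03061 (chr13:109269634-109278512, plus strand) had 174, 161 and 180 CPM in control, 93.0, 81.4 and 84.4 in KO and 134, 123 and 125 in OE libraries. The 3 groups did not overlap, with control highest and KO lowest. It fell by 0.99 ± 0.09 in KO (adjusted p = 2.05e-09, trend-corrected -1.15) and by 0.43 ± 0.08 in OE cells (adjusted p = 0.000609). LINC00707 had 54.4, 44.0 and 43.7 CPM in control, 20.2, 17.6 and 18.3 in KO and 58.0, 60.1 and 50.3 in OE libraries. KO libraries lay below all others, 1.34 ± 0.13 under control (adjusted p = 8.97e-09, trend-corrected -1.09), and OE and control overlapped (0.24 ± 0.11, adjusted p = 0.151).

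LINC02967 (chr20:24931840-24932983, plus strand) moved in both altered groups. It had 24.0, 24.3 and 17.3 CPM in control, 55.7, 52.3 and 50.1 in KO and 7.30, 4.74 and 7.37 in OE libraries. The 3 groups did not overlap, with KO highest and OE lowest. The rise in KO cells was 1.27 ± 0.15 (adjusted p = 2.29e-07, trend-corrected 0.78) and the fall in OE cells 1.75 ± 0.17 (adjusted p = 1.41e-07). Tested directly and without the trend removed, KO cells exceeded OE cells 8.08-fold (log2 3.02 ± 0.17, adjusted p = 1.01e-12).

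LINC01133 (chr1:159958035-159984750, plus strand) had 22.9, 20.4 and 20.7 CPM in control, 15.8, 14.7 and 15.4 in KO and 38.5, 33.8 and 46.2 in OE libraries. Here OE was highest and KO lowest, again with no overlap. It fell by 0.48 ± 0.15 in KO (adjusted p = 0.0081, trend-corrected -0.77) and rose by 0.89 ± 0.13 in OE cells (adjusted p = 3.56e-05). LINC02693 was lower in KO, at 1.25 ± 0.491 against 2.78 ± 0.525 CPM (-1.18 ± 0.39, adjusted p = 0.013, trend-corrected -0.59, adjusted p = 0.224), and that call was also lost without control library 2 (0.0576) or KO library 1 (0.0737). In OE cells LINC02693 rose to 8.42 ± 1.64 CPM (1.59 ± 0.30, adjusted p = 0.000527).

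LINC02381 had 0.655, 1.05 and 1.01 CPM in control, 0, 0 and 0 in KO and 2.21, 3.02 and 4.59 in OE libraries. In total 0 counts in KO stood against 25 in control and 113 in OE libraries, and 24.3% of its exon bases are shared with other genes. With a floor of 3 counts over the group it was at least 6.99-fold lower in KO than in control (adjusted p = 0.000519) and at least 26.7-fold lower than in OE cells (adjusted p = 1.39e-06). The rise in OE cells was 1.86 ± 0.49 (adjusted p = 0.0101), lost without control library 1 (0.0537) or OE library 3 (0.0751). LINC00525 had 2 counts in OE, 19 in control and 64 in KO libraries. The ratio of KO to OE was 45.2 (95% counting interval 12.0 to 381) and that of control to OE 11.3 (2.72 to 99.7). Here and below the interval covers counting error only. It takes each count as independent, so it is too narrow if both mates of a read pair were counted. The test in OE against control (adjusted p = 0.0339) missed the threshold in a fit of these 2 groups alone (adjusted p = 0.0599) and without control library 1 (0.0545), control library 3 (0.222), OE library 2 (0.107) or OE library 3 (0.118). The test of LINC00525 passed in KO against control (2.02 ± 0.63, adjusted p = 0.00997, trend-corrected 1.53), but not without control library 2 (0.0573).

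Other LINC genes rose in KO cells. LINC02541 had 0.982, 1.69 and 1.57 CPM in control, 6.03, 5.16 and 6.09 in KO and 1.88, 0.605 and 1.02 in OE libraries. KO libraries lay above control by 2.01 ± 0.42 (adjusted p = 0.000286, trend-corrected 1.58). LINC01547 rose by 2.06 ± 0.49 (adjusted p = 0.00122, trend-corrected 2.39) and LINC00365 by 1.72 ± 0.49 (adjusted p = 0.00521, trend-corrected 1.42). LINC01503 went from 25.8 ± 0.592 to 43.6 ± 2.49 CPM (0.76 ± 0.12, adjusted p = 1.87e-05, trend-corrected 0.92), and LINC00511 from 17.3 ± 3.49 to 27.2 ± 5.50 CPM (0.66 ± 0.17, adjusted p = 0.00192, trend-corrected 1.37). In the other direction, LINC01963 fell by 1.73 ± 0.38 (adjusted p = 0.000524, trend-corrected -2.06) and LINC00342 by 1.78 ± 0.49 (adjusted p = 0.00396, trend-corrected -1.70).

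In OE cells, LINC01213 fell by 1.54 ± 0.36, from 3.79 ± 0.829 to 1.30 ± 0.482 CPM (adjusted p = 0.00362). LINC02910 was higher, at 3.09 ± 0.494 against 0.774 ± 0.694 CPM (adjusted p = 0.022), and that call was lost without control library 1 (0.11), control library 2 (0.104) or OE library 2 (0.0677). The CPM scale of these sparse LINC genes corresponds to few reads: LINC02910 had 21 counts over the 3 control libraries.

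**Figure D4:**
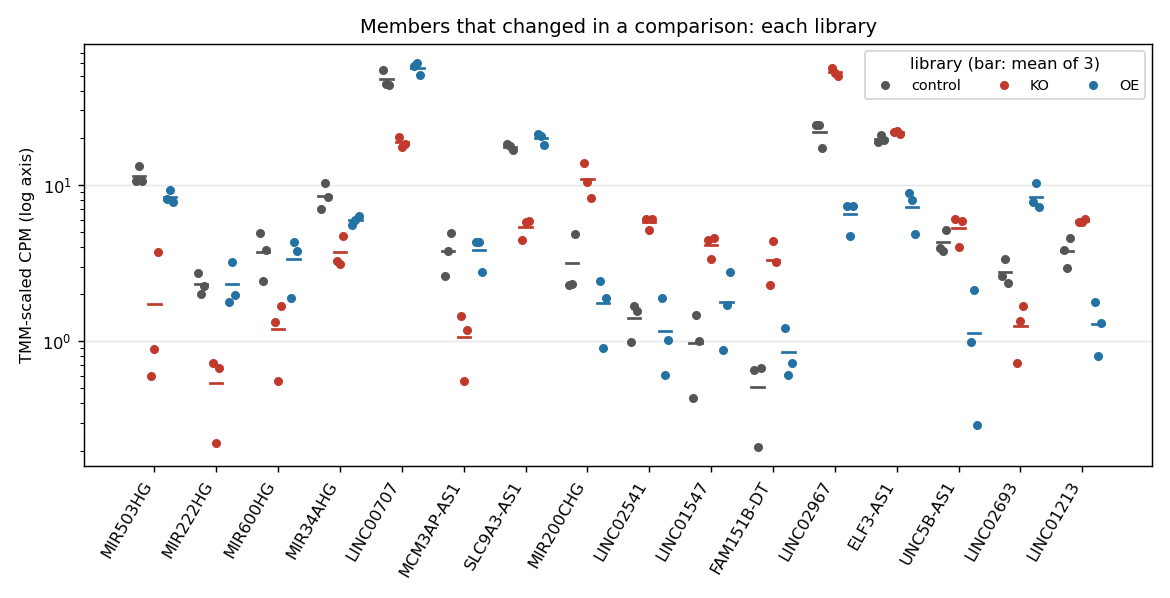
CPM scaled by TMM, on a log axis, in each library for 16 members that changed in at least 1 comparison, with a bar at the mean of each group of 3. KO libraries of MIR503HG, MIR222HG and LINC00707 lie below the other groups, and OE libraries of LINC02967, ELF3-AS1 and UNC5B-AS1 lie lowest.

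Promoters were taken from RefSeq (GRCh38.p14), as 250 bases before to 50 after each gene's start, which can differ from the start in the count files, and 415 of the 552 members had one. Those of MIR205HG and IRX2-DT, the highest members per length, and of ELF3-AS1 and INSIG1-DT, which moved with their coding partners in OE cells, are shown 5′ to 3′. Capitals mark matches, on either strand, to letters of the TATA box (TATAAA), the box bound by NF-Y (CCAAT), the GC box bound by Sp factors (GGGCGG) and the site bound by AP-1 (TGACTCA).
MIR205HG (chr1:209428570-209428869, plus strand): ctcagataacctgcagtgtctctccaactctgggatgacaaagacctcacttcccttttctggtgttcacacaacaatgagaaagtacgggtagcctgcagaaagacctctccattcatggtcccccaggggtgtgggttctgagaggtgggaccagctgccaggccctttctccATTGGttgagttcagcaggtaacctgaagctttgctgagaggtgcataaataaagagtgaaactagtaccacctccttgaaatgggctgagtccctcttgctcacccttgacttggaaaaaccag
IRX2-DT (chr5:2751643-2751942, plus strand): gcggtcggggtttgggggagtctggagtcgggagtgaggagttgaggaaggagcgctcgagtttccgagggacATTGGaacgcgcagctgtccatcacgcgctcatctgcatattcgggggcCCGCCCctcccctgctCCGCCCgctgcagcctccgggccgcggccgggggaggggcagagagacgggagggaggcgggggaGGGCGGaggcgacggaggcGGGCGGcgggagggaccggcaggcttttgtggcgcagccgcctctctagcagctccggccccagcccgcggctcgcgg
ELF3-AS1 (chr1:202010304-202010603, minus strand): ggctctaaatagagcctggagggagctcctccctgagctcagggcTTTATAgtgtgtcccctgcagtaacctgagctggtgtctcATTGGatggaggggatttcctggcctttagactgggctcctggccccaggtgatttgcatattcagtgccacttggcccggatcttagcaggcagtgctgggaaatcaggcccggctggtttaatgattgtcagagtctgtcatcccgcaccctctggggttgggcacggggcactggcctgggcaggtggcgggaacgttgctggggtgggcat
INSIG1-DT (chr7:155297609-155297908, minus strand): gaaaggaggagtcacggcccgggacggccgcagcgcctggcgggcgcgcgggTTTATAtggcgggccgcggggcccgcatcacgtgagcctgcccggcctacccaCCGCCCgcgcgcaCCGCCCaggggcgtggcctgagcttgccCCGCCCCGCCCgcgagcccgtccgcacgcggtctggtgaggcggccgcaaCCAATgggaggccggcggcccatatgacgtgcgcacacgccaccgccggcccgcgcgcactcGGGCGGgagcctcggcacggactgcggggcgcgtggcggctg
MIR205HG held 1 NF-Y box alone, and ELF3-AS1 held 1 NF-Y box and 1 TATA box. The GC box was found 4 times in the window of IRX2-DT and 5 times in that of INSIG1-DT. Over member promoters the GC box letters were present in 62.7%, beside 44.6% of 27305 promoters of all genes, and the NF-Y box in 36.4% beside 35.7%. The TATA box was present in 6.99% beside 12.0%, and the AP-1 site in 3.37% beside 4.92%. These are matches of letters, not binding sites, and matches on the 2 strands or to different motifs may overlap.

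Divergent transcripts started a median of 148 bases from the start of their coding partner, and 115 of 120 within 1 kb. IRX2-DT (chr5:2752131-2755397, plus strand) shares no exon base with another gene. It had 66.1, 65.1 and 66.3 CPM in control, 152, 155 and 136 in KO and 36.3, 46.1 and 36.4 in OE libraries. The 3 groups did not overlap, with KO highest and OE lowest. It rose by 1.17 ± 0.10 in KO (adjusted p = 1.32e-09, trend-corrected 0.92) and fell by 0.74 ± 0.10 in OE cells (adjusted p = 1.31e-05). The partner IRX2 went from 153 ± 3.37 CPM in control to 207 ± 26.4 in KO (rise of 0.44 ± 0.09, adjusted p = 0.000206, trend-corrected 0.49) and 125 ± 4.06 in OE libraries (fall of 0.29 ± 0.09, adjusted p = 0.0218).

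SRP14-DT, which faces the signal recognition particle gene SRP14, had 0.655, 0.843 and 0.562 CPM in control, 2.41, 2.80 and 2.37 in KO and 1.11, 1.31 and 1.09 in OE libraries. KO libraries lay above all others. The KO rise was 1.86 ± 0.50 (adjusted p = 0.00299, trend-corrected 1.79), and SRP14 rose by 0.81 ± 0.09 (adjusted p = 5.05e-08, trend-corrected 0.37). FAM151B-DT rose by 2.66 ± 0.55 in KO cells, from 0.513 ± 0.262 to 3.29 ± 1.04 CPM (adjusted p = 0.000307, trend-corrected 2.76), but 60.6% of its exon bases are shared with other genes. NEMP2-DT rose by 2.42 ± 0.64 (adjusted p = 0.00302, trend-corrected 2.23), while NEMP2 had 0.16 ± 0.15 (adjusted p = 0.392).

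INSIG1-DT (chr7:155295918-155297541, minus strand) faces INSIG1, which retains the sterol sensor SCAP in the endoplasmic reticulum. It had 0.655, 1.69 and 1.35 CPM in control, 1.69, 1.46 and 1.69 in KO and 4.09, 3.43 and 2.48 in OE libraries. OE libraries lay above the rest, by 1.41 ± 0.44 against control (adjusted p = 0.026), a call lost without control library 1 (0.126), control library 3 (0.0629), OE library 1 (0.085) or OE library 2 (0.0664). INSIG1 rose by 0.47 ± 0.11 in OE cells (adjusted p = 0.00411) and fell by 0.60 ± 0.12 in KO cells (adjusted p = 0.000204, trend-corrected -0.84), where INSIG1-DT had 0.38 ± 0.48 (adjusted p = 0.534). BOLA3-DT was higher in OE cells by 1.33 ± 0.39 (adjusted p = 0.0197), lost without control library 1 (0.0975) or OE library 2 (0.114), and BOLA3 had 0.16 ± 0.19 (adjusted p = 0.644).

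ELF3-AS1 (chr1:201995696-202010463, minus strand) lies opposite ELF3, an epithelial transcription factor, and shares 23.3% of its exon bases with other genes. It had 18.9, 21.0 and 19.3 CPM in control, 21.8, 22.1 and 21.1 in KO and 8.85, 8.06 and 4.89 in OE libraries. OE libraries lay below all others. ELF3-AS1 fell by 1.47 ± 0.19 in OE cells (adjusted p = 4.59e-06), where ELF3 fell by 0.77 ± 0.11 (adjusted p = 2.22e-05). In KO cells ELF3 rose by 0.31 ± 0.11 (adjusted p = 0.0203, trend-corrected 0.66). UNC5B-AS1, antisense to the netrin receptor gene UNC5B, shares no exon base. It had 3.93, 3.79 and 5.17 CPM in control, 6.03, 4.04 and 5.92 in KO and 0.996, 2.12 and 0.292 in OE libraries. OE libraries were again lowest without overlap, with a fall of 1.98 ± 0.45 (adjusted p = 0.00288), and UNC5B fell by 1.10 ± 0.10 (adjusted p = 7.33e-08). In KO cells UNC5B fell by 0.56 ± 0.10 (adjusted p = 8.57e-05), with a trend-corrected value of -0.13 (adjusted p = 0.216).

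GASK1B-AS1 fell by 1.09 ± 0.21 in OE cells, from 16.2 ± 2.01 to 7.68 ± 2.07 CPM (adjusted p = 0.000456), and GASK1B by 1.42 ± 0.14 (adjusted p = 2e-07), with 26.6% of the member's exon bases shared. IGFL2-AS1 (chr19:46189029-46203160, minus strand) had 76.2, 72.3 and 80.9 CPM in control, 65.2, 63.7 and 67.6 in KO and 37.2, 28.9 and 34.5 in OE libraries. OE libraries lay below all others, by 1.19 ± 0.10 against control (adjusted p = 2.68e-08), and the partner IGFL2 had -0.23 ± 0.33 (adjusted p = 0.693). In KO cells IGFL2 rose by 1.86 ± 0.30 (adjusted p = 1.68e-05, trend-corrected 1.48), while the KO libraries of IGFL2-AS1 lay below control. CDKN2B-AS1 had -1.04 ± 0.53 in OE cells (adjusted p = 0.19), while CDKN2B, a cyclin-dependent kinase inhibitor, fell by 1.43 ± 0.08 (adjusted p = 2.13e-11).

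KRT10-AS1 was picked out after its values were seen, for its partner KRT10, the keratin of the suprabasal layers. It had 19.5, 17.2 and 15.2 CPM in control, 35.7, 34.9 and 33.1 in KO and 13.5, 8.57 and 12.3 in OE libraries. The 3 groups did not overlap, with KO highest and OE lowest. It rose by 1.00 ± 0.16 in KO (adjusted p = 1.09e-05, trend-corrected 0.57) and fell by 0.59 ± 0.16 in OE cells (adjusted p = 0.0128). Without the trend removed, KRT10 had 0.9 in KO (adjusted p = 6.7e-07) and -0.36 in OE cells (adjusted p = 0.0318). Of the exon bases of KRT10-AS1, 1.83% are shared.

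Several antisense genes fell in KO cells. MCM3AP-AS1 had 2.62, 3.79 and 4.94 CPM in control, 1.45, 0.561 and 1.18 in KO and 4.32, 4.33 and 2.77 in OE libraries. KO libraries lay below control without overlap. MCM3AP-AS1 fell by 1.84 ± 0.44 (adjusted p = 0.00118, trend-corrected -1.61), NFATC2IP-AS1 by 1.90 ± 0.51 (adjusted p = 0.0033, trend-corrected -2.19) and GPC1-AS1 by 2.18 ± 0.59 (adjusted p = 0.00336, trend-corrected -2.22). MCM3AP fell by 0.89 ± 0.11 (adjusted p = 7.72e-07, trend-corrected -0.47) and NFATC2IP by 0.65 ± 0.12 (adjusted p = 0.000115, trend-corrected -0.56). GPC1 was lower by 0.27 ± 0.08 (adjusted p = 0.00459) but had a trend-corrected value of 0.28 (adjusted p = 0.00114).

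SLC16A1-AS1 went against its partner in KO cells. It had 4.15, 7.37 and 4.38 CPM in control, 2.77, 1.91 and 1.86 in KO and 6.97, 11.3 and 11.0 in OE libraries. KO libraries lay below all others, 1.27 ± 0.33 under control (adjusted p = 0.00231, trend-corrected -0.92), while SLC16A1, the monocarboxylate transporter MCT1, rose by 0.53 ± 0.08 (adjusted p = 3.52e-06, trend-corrected 0.40). In OE cells SLC16A1-AS1 was higher by 0.88 ± 0.27, with libraries that overlapped control (adjusted p = 0.0239), and that call was lost without control library 1 (0.118), control library 3 (0.106), OE library 2 (0.104) or OE library 3 (0.0794).

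Among rises in KO cells, TAF1A-AS1 rose by 2.43 ± 0.64 (adjusted p = 0.00265, trend-corrected 1.97) and TAF1A by 0.77 ± 0.24 (adjusted p = 0.00891, trend-corrected 0.38, adjusted p = 0.199). DLGAP1-AS1 rose by 1.69 ± 0.45 (adjusted p = 0.00295, trend-corrected 1.38), with DLGAP1 at 0 counts over all libraries. Of genes picked out after their values were seen, NNT-AS1 rose from 9.06 ± 1.15 to 17.9 ± 3.64 CPM (0.97 ± 0.20, adjusted p = 0.000242, trend-corrected 0.85) and SLC9A3-AS1 fell from 17.6 ± 0.873 to 5.40 ± 0.819 CPM (-1.71 ± 0.18, adjusted p = 5.35e-08, trend-corrected -1.38). The intronic transcript ANKRD10-IT1, likewise picked, had 3 counts in KO against 45 in control libraries, a ratio of 12.6 for control to KO (95% counting interval 4.04 to 63.3).

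Among the abundant antisense genes, FGD5-AS1 had 125, 119 and 118 CPM in control, 139, 158 and 140 in KO and 135, 129 and 124 in OE libraries. KO libraries lay above control by 0.27 ± 0.08 (adjusted p = 0.00736), with a trend-corrected value of 0.13 (adjusted p = 0.183), and the call was also lost without KO library 2 (0.0604). OIP5-AS1, the human counterpart of the conserved RNA Cyrano and picked out after its values were seen, was lower in KO, at 114 ± 10.3 against 141 ± 1.70 CPM (-0.30 ± 0.09, adjusted p = 0.00459), with a trend-corrected value of -0.12 (adjusted p = 0.215).

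Across 218 antisense genes tested with a tested partner, the log2 fold changes in KO of member and partner had a Pearson r of 0.14, and across 109 divergent pairs 0.26. These correlations are across genes, which share libraries and are not independent replicates, and some pairs share exon bases. In KO cells 27 of 44 called antisense members had a called partner, beside 136 partners called among all 218. For divergent members it was 11 of 15, beside 64 of 109. Of these 27 antisense pairs with both genes called, 19 moved in the same direction, and of the 11 divergent pairs 7 did. In OE cells 6 of 12 called antisense members had a called partner, beside 48 of 218 partners. For divergent members it was 2 of 4, beside 18 of 109. These 6 and 2 pairs moved in the same direction. Of 272 antisense members, 199 shared exon bases with their partner. Reads over exons of more than 1 gene are left unassigned by the counting program unless it is told otherwise. For 386 members with at least 5 tested genes within 500 kb, Pearson r with the median change of these neighbours was 0.16 in KO and 0.04 in OE cells. Both values cover all chromosomes together. Whether KO rises were shared by larger regions of their chromosomes was not tested. That holds for IRX2-DT, MIR4458HG and NNT-AS1 on chr5 and for TAF1A-AS1, MIR205HG and RNF2 on chr1.

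**Figure D5:**
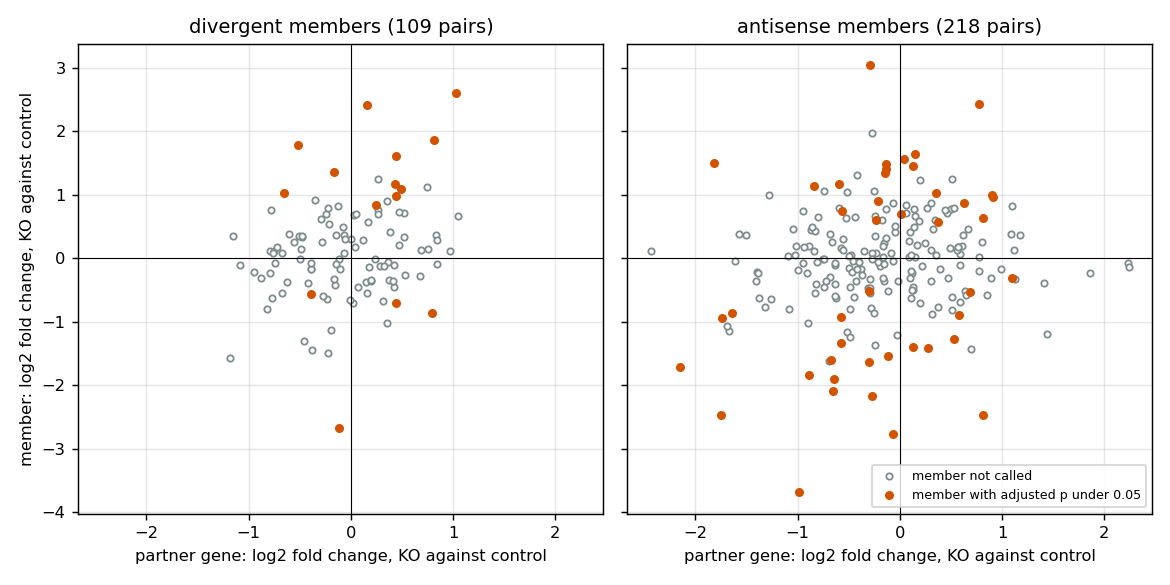
Log2 fold change in KO libraries against control of divergent (left, 109 pairs) and antisense (right, 218 pairs) members, by that of the partner gene. Points spread to all sides of the origin in both panels, with the Pearson r of 0.26 for divergent and 0.14 for antisense pairs.

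Between OE and control cells 16 members were higher and 19 lower, or 6.97% of members tested, beside 18.6% of all tested genes (9.28% higher and 9.34% lower). The split was 7 up and 7 down for LINC genes, 3 and 9 for antisense genes, 3 and 1 for divergent transcripts and 2 and 1 for host genes. Of the 52 members with a mean of at least 10 CPM, 3 rose and 11 fell (26.9%), beside 22.5% of all tested genes at that level. The share lower was 21.2% of these members and 11.1% of those genes. Called or not, the libraries did not overlap in 104 of 502 members (20.7%), beside 34.8% of all tested genes, and 33 of the 35 called did not. Of these 35, 2 reached the CPM limit through a single group and support nothing. The median log2 fold change was -0.11 over the members tested and -0.01 over all tested genes.

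Between KO and OE cells, 76 members were higher in KO and 63 lower, or 27.7% of members tested, beside 57.6% of all tested genes (28.6% higher and 29.0% lower). At 2-fold or more 59 were higher and 50 lower, beside 9.48% and 8.95%. With the trend removed, 73 were higher and 63 lower (27.5% and 25.8% over all tested genes), and 112 were called in the same direction both ways. Called or not, the libraries did not overlap in 194 of 502 members (38.6%), beside 61.6% of all tested genes, and 129 of the 139 called did not. Of these 139, 6 reached the CPM limit through a single group and support nothing. At a mean of at least 10 CPM, 16 of 52 members were higher and 11 lower (51.9%), beside 66.5% of all tested genes at that level, of which 33.7% were lower. LINC02967, MIR200CHG, IRX2-DT and KRT10-AS1 were higher in KO than in OE cells, and NEAT1, MIR503HG, LINC00707, LINC01133 and LINC02693 lower. MIR200CHG had a difference of 2.64 ± 0.35 (adjusted p = 9.85e-07) and NEAT1 one of -1.79 ± 0.12 (adjusted p = 2.05e-11). MALAT1 had -0.20 ± 0.15 (adjusted p = 0.242).

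Genes for proteins that process or bind these RNAs were also counted. Over all tested genes, 26.0% were higher and 25.9% lower in KO cells (24.0% and 21.9% with the trend removed), 30.9% were lower among those with a mean of at least 10 CPM, and 9.28% were higher and 9.34% lower in OE cells. The 7 lists below are to be read against those shares and against the median log2 change of -0.00465 in KO. Of 18 paraspeckle protein genes, 9 fell and 3 rose in KO cells (9 and 2 with the trend removed) and 4 rose in OE cells, with a median log2 change in KO of -0.33. TAF15 fell by 1.13 ± 0.09 in KO cells (adjusted p = 8.66e-10), with a trend-corrected value of -0.99 (adjusted p = 3.82e-10). Counts of NEAT1, which do not tell its forms apart, were lower in KO and higher in OE cells. The values are given above, with the libraries without which the OE call was lost. Whether the long form or paraspeckles changed was not tested. Of 16 nuclear speckle protein genes 9 fell and 2 rose in KO cells (9 and 4 with the trend removed), with a median of -0.50, among them the splicing cofactor gene SRRM2 (-0.81 ± 0.08, adjusted p = 3.03e-08, trend-corrected -0.18) and PNN, whose product pinin binds splicing factors (-0.88 ± 0.09, adjusted p = 1.38e-08, trend-corrected -1.17).

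Of 16 genes of the microRNA machinery 10 fell and 3 rose in KO cells (8 and 2 with the trend removed), with a median log2 change of -0.53, beside 25.9% lower and 26.0% higher over all tested genes. AGO2, the slicing Argonaute, went from 63.9 ± 5.31 to 31.7 ± 3.79 CPM (adjusted p = 3.75e-07, trend-corrected -0.52), and TNRC6A, which binds Argonautes, fell by 1.27 ± 0.10 (adjusted p = 6.18e-10, trend-corrected -0.88). RAN, which drives nuclear export of pre-microRNAs, rose by 0.80 ± 0.09 (adjusted p = 1.56e-07, trend-corrected 0.61). Of 10 genes of nonsense-mediated decay, which degrades some noncoding transcripts, 7 fell and 0 rose (7 and 1 with the trend removed), with a median of -0.62 and UPF1 at -0.87 ± 0.08 (adjusted p = 7.89e-09, trend-corrected -0.33).

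Genes of the nuclear RNA exosome and its adaptors went both ways in KO cells, with 8 of 20 higher and 4 lower (3 and 4 with the trend removed) and a median log2 change of 0.15. Polycomb and other chromatin proteins that bind long noncoding RNA had 3 higher and 4 lower of 18 and a median of -0.04, with RNF2 up by 1.49 ± 0.13 (adjusted p = 2.65e-09, trend-corrected 1.12). HNRNPU had -0.64 ± 0.08 (adjusted p = 3.8e-07, trend-corrected -0.24) and RCOR1 -0.60 ± 0.09 (adjusted p = 1.08e-05, trend-corrected -0.59). CTCF had -0.55 ± 0.10 (adjusted p = 0.000112, trend-corrected -0.28). Genes for 3′ end processing of MALAT1 and NEAT1 had 4 higher and 2 lower of 10 (1 and 1 with the trend removed) and a median of 0.30, with the RNase P subunit gene POP1 down by 1.13 ± 0.11 (adjusted p = 1.18e-08, trend-corrected -1.22). RPP40 had 0.82 ± 0.21 (adjusted p = 0.00272, trend-corrected 0.37, adjusted p = 0.162) and POP4 0.45 ± 0.13 (adjusted p = 0.00693, trend-corrected 0.32, adjusted p = 0.0405). RPP30 had 0.56 ± 0.18 (adjusted p = 0.0115, trend-corrected 0.31, adjusted p = 0.145). In OE cells 0 to 4 genes of each of these 7 lists rose and 0 or 1 fell.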

How the data were processed

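RNA of the 9 libraries was poly-A selected and read as pairs of 150 bases, per the labels' protocols. The deposited files give each gene a whole-number count. The authors ran featureCounts 1.5.2 on the annotation of Ensembl 101 (GRCh38), per the file headers, whose command sets neither a strand nor a read-pair option, so mates may be counted separately. The submitters' processing notes list HISAT2 1.03, featureCounts 0.1.0, FastQC and DESeq2.

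Genes were kept with edgeR's filterByExpr (minimum count 10), which left 13390 genes, 502 members among them, and dropped 50 members. Counts were scaled by TMM, and all 9 libraries entered 1 quasi-likelihood fit with group as its term (edgeR 4.0.16, R 4.3.3, common biological coefficient of variation 10.2%), two-sided and Benjamini-Hochberg adjusted over all tested genes. For trend-corrected values, each library's trend over exon length and GC content (GC known for 99.6% of tested genes) was fitted by loess (span 0.3) and entered as an offset. Coordinates are those of the count files unless credited to RefSeq. The scripts were tested on simulated data. Alternatives used DESeq2 1.42.0 and limma 3.58.1.

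The text names MALAT1, NEAT1, host genes, the 10 members highest by RPKM, the 8 furthest rises and falls per comparison among called members without overlap whose higher group averaged 2 CPM or more, partners of named members, genes at the limit, a list of known LINC and antisense genes, and genes of the protein lists with the smallest p, leaving out some that add no result. The members and lists were chosen with earlier results of these data known. Results of some genes are not reported here.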

Additional observations from a re-analysis of the deposited data

How the results depend on the processing

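Another size factor, no filter on low counts, DESeq2, limma-voom, fits of the compared groups alone, the replicate block, the trend correction and other CPM limits kept each count of members within 1.5 times its value in the report. Stricter rules moved some. For the counts below, shares of all tested genes were computed only at 2-fold. These were 6.36% higher and 6.52% lower in KO and 1.90% lower in OE against control. The other counts show how the members' own numbers move, and cannot be set against all tested genes. At an adjusted p under 0.01, 32 members were higher and 37 lower in KO against control, 2 and 11 in OE against control and 43 and 37 in KO against OE. With a minimum count of 30, 37 were higher in KO and 6 in OE against control, and 48 were higher and 41 lower in KO against OE. With a 2-fold limit 36 were higher and 36 lower in KO, and 9 lower in OE against control. Members that share no exon base (209 of 552, tested or not) gave 25 higher and 17 lower in KO, 6 and 9 in OE, and 34 and 17 in KO against OE. Leaving out 1 library gave 42 to 52 higher and 43 to 59 lower in KO, 6 to 16 and 14 to 20 in OE, and 58 to 67 and 46 to 62 in KO against OE. For MIR4435-2HG in KO the log2 change turned from -0.77 to 0.00493 with the trend removed. The replicate numbers did not pair the libraries (correlations of deviations from -0.0772 to 0.066), and with them as a block 53 members were higher and 53 lower in KO, 12 and 20 in OE, and 72 and 61 in KO against OE. The block ended 7 calls of named genes, among them that of MIR924HG in OE (adjusted p = 0.0506). Over all named genes, comparisons and settings, 2589 values kept direction and side of the threshold, 131 lost a call, 24 gained one and 1 turned. Where a call was lost, the cause was not tested. With a median of 1.97 CPM, small changes of most members were not detectable at this depth.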
